A study of Caenorhabditis elegans with 32 samples.

Results

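The caenacins are a family of small secreted antimicrobial peptides of *C. elegans*, rich in glycine and named cnc for Caenorhabditis bacteriocin. This is an account of 8 caenacin genes, cnc-1 to cnc-7 and cnc-11, which were 8 of the 25497 genes that could be tested and carried 17 of the 43314 array probes that were used. The members were selected by symbol, with the low level of cnc-6 in the csb-1 strains already known, so every value of csb-1 mutants against strains with intact csb-1 is given below as a description without a test. The csa-1 and nicotinamide riboside (NR) comparisons were not used to select the members and were tested. Earlier results of these data were, however, known when the tests were chosen. Caenacins with a symbol outside the list, cnc-8, cnc-9 and cnc-10, are described further on.

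Worms have no adaptive immune system, and the epidermis meets pathogens such as the fungus Drechmeria coniospora with secreted peptides of the cnc and nlp families. Epidermal nlp-29 is switched on through the p38 MAP kinase PMK-1 and the STAT-like factor STA-2. The best studied caenacin, cnc-2, is induced through the TGF-beta ligand DBL-1, which is made by neurons and acts on the epidermis, and the cnc and nlp genes also respond to wounding.

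RNA came from whole worms kept at 25 °C and collected on day 7 of adulthood. By the methods, worms received fluorodeoxyuridine from the last larval stage on to stop egg-laying, unless otherwise noted. The account of the arrays notes no exception. There were 4 strains. Beside the wild type N2 these were a csa-1 mutant with the allele tm4539, a csb-1 mutant with the allele ok2335, and csa-1;csb-1, a double mutant that carried both alleles. CSA-1 and CSB-1 are the worm counterparts of the proteins lost in Cockayne syndrome, which act in transcription-coupled repair. Each strain received either water as vehicle or 500 µM NR, a precursor of NAD+, from the last larval stage (L4) on, which gives 8 groups of 4 arrays each and 32 arrays in all. The methods speak of 3 biological replicates, and the labels do not say that the 4 arrays of a group came from separate cultures, so the spread given here is the spread between arrays. The 4 arrays of each group shared a slide that held no other group, so an effect of the slide and an effect of the group cannot be told apart in any comparison. Whole worms were measured, so fewer cells of a type and less RNA per cell cannot be told apart either.

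The share of probes well above background ran from 46.9% on the array N2 vehicle replicate 1 to 78.4%, with a median of 72.3%. Of the 7 csb-1 probes, the one lowest in the csb-1 strains was taken, after its values were seen, to check the labels. It lay between -0.33 and 0.06 on the 15 other arrays of N2 and csa-1 and between -1.4 and -0.55 on the 16 arrays of the csb-1 strains, but at -1.22 on 1 array of the csa-1 strain, labelled csa-1 NR replicate 4, against that label. The csa-1 probe did not separate N2 (-0.44 to 0.00) from the csa-1 vehicle and double mutant arrays (-0.63 to -0.01), and read 0.21 on that same array. On this probe the other csa-1 NR arrays read -0.33 to -0.26 and the arrays of the csb-1 single mutant -0.16 to 0.19. Several results of the members that rest on this array, or on N2 vehicle replicate 3, which stands apart for most caenacins, are also given without it. Neighbours, other gene lists and counts of groups without overlap were not recomputed without either array.

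Levels are Z-scores: the log2 intensity of a probe minus the mean of its array, divided by the SD of that array, so that 0 is the average gene probe. A Z-score belongs to its own probe and was not set against that of another gene, except to pick the member of highest mean Z-score for the search of like patterns. Differences between groups are given as log2 changes (a Z difference times 3.74, the mean SD of log2 intensity) with the standard error (SE) from limma over all 32 arrays, and p-values were adjusted by Benjamini-Hochberg over all 25497 genes. A gene was called when its adjusted p was at most 0.05, its Z-ratio (its change over the SD of all genes' changes) at least 1.5 in size and its mean Z-score above 0. The last criterion shut out cnc-5 in every comparison and cnc-1 in most, so their adjusted p is given instead. For differences between NR effects the adjusted p alone decided.

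Of the 8 genes, 6 lie side by side on chromosome V in the order cnc-11 (R09B5.13), cnc-1 (R09B5.2), cnc-5 (R09B5.10), cnc-4 (R09B5.9), cnc-3 (R09B5.8) and cnc-2 (R09B5.3). A 7th, cnc-7 (F53H2.2), lies elsewhere on chromosome V, and cnc-6 (Y46E12A.1) lies alone on chromosome III. The gene cnc-2 had 6 probes, cnc-11 had 5 and the other 6 genes had 1 each. Neighbours in such a cluster can be near copies of each other, and how far a probe also bound the RNA of a related gene was not tested. The probes of 6 members were well above background on all 32 arrays, that of cnc-1 on 31 and that of cnc-5 on only 8.

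**Figure D1:**
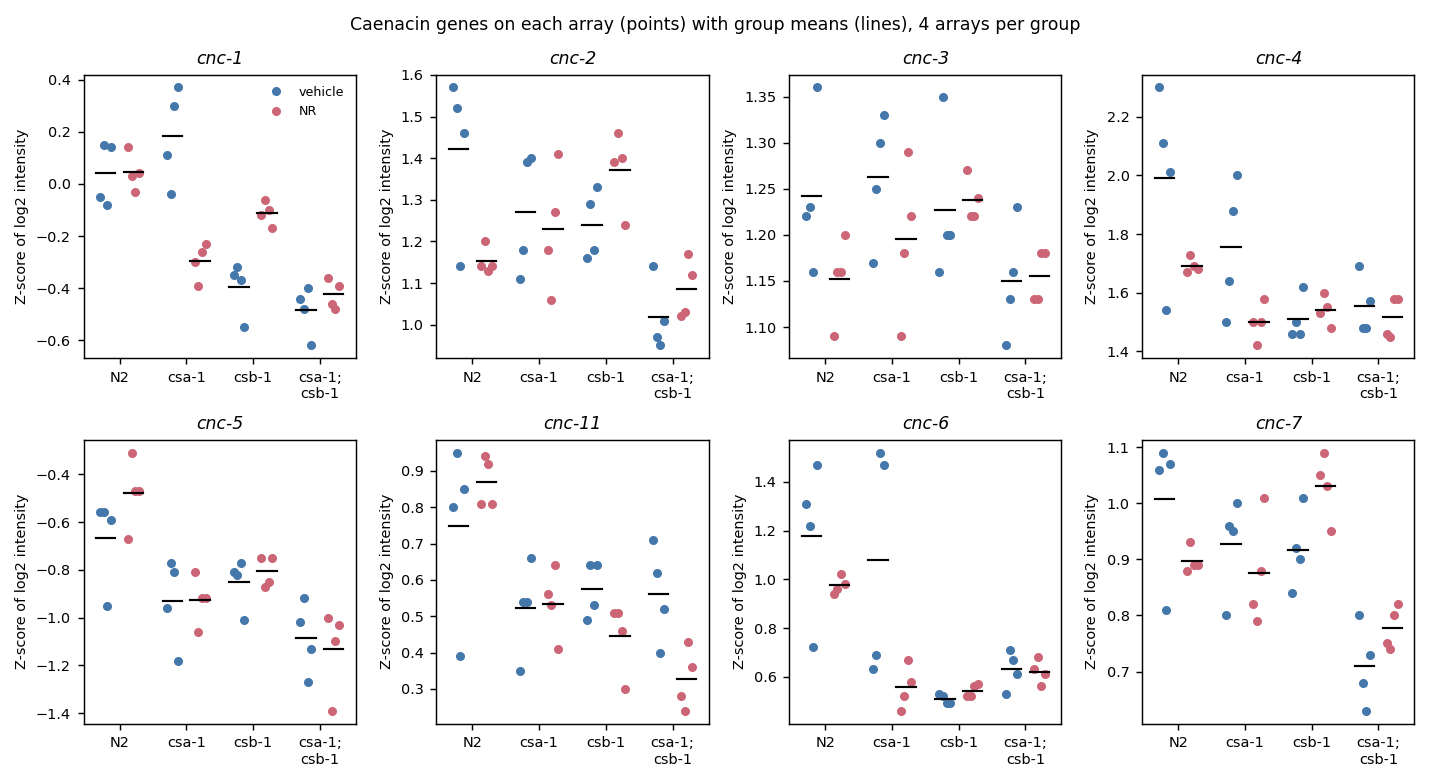
Z-score of log2 intensity (vertical axis) of each caenacin gene on each of the 32 arrays, by strain and treatment; points are arrays, blue for vehicle and red for NR, and lines are means of 4 arrays. The vertical axes differ between genes; cnc-6 lies between 0.46 and 0.71 on all arrays of csb-1, the double mutant and csa-1 on NR, and 2 of the 4 csa-1 vehicle arrays reach 1.47 and 1.52.

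The level of cnc-6 varied most between the arrays of N2 and csa-1 on vehicle. On N2 vehicle its Z-scores were 1.31, 1.22, 0.72 and 1.47, and on N2 with NR they were 0.94, 0.96, 1.02 and 0.98. On csa-1 vehicle the 4 arrays fell apart into 0.63 and 0.69 on the one side and 1.52 and 1.47 on the other, whereas csa-1 with NR gave 0.46, 0.52, 0.67 and 0.58. In the csb-1 strains the arrays lay close together: 0.53, 0.52, 0.49 and 0.49 for csb-1 vehicle and 0.52, 0.52, 0.56 and 0.57 for csb-1 with NR. The double mutant gave 0.53, 0.71, 0.67 and 0.61 on vehicle and 0.63, 0.68, 0.56 and 0.61 on NR. By group mean the order was N2 vehicle (1.18), csa-1 vehicle (1.08), N2 with NR (0.98), then both double mutant groups (0.63 and 0.62), csa-1 with NR (0.56), csb-1 with NR (0.54) and csb-1 vehicle (0.51). The step of 0.34 below N2 with NR was larger than the SD of the groups on either side of it, as was the last step of 0.03, between csb-1 with NR and csb-1 vehicle; the other 5 of the 7 steps were not.

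As a description, cnc-6 had a log2 change of -2.51 ± 0.53 (SE) in csb-1 against N2 on vehicle, a 5.68-fold lower level, and 3.03-fold lower on NR, with no overlap between arrays in either case. In the double mutant it was 3.19-fold lower than in csa-1 on vehicle, but there the lower csa-1 arrays overlapped the double mutant, and on NR it was 0.24 higher (SE 0.53). The average over these 4 csb-1 comparisons was a log2 change of -1.38 ± 0.27 for cnc-6, -1.31 ± 0.14 for cnc-1, -0.81 for cnc-5, -0.76 for cnc-4, -0.72 for cnc-11, -0.34 for cnc-2, -0.25 for cnc-7 and -0.08 for cnc-3. All 8 values were below 0, with a median of -0.74 beside 0.01 for all genes tested.

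The arrays of csb-1 and N2 did not overlap for 2 members on vehicle, where 2.26% of all genes were so separated, and for all 8 on NR, where 21.8% were. On NR 5 of these 8 were lower in csb-1, and cnc-2, cnc-3 and cnc-7 were higher by 0.81, 0.33 and 0.49 on the log2 scale. Between the double mutant and csa-1 there were 2 members without overlap on vehicle (11.6% of all genes) and 0 on NR (18.6%). Nothing is drawn from these counts, since the rule used the same comparisons.

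In csa-1 the level of cnc-6 was lower on NR than on vehicle in the main fit, and in no other strain was its change past the threshold. Its log2 change in csa-1 was -1.95 ± 0.53, a 3.86-fold lower level (95% confidence interval -3.04 to -0.86), with an adjusted p of 0.029. It was the 1 member called there, where 2.2% of all genes were called. The lower vehicle pair (0.63 and 0.69) overlapped the NR arrays (0.46 to 0.67), the exact 2-sided permutation test of 4 arrays against 4 gave p = 0.057, and a fit of these 2 groups alone gave an adjusted p of 0.26. Leaving out vehicle replicate 3 or 4 took the log2 change to -1.4 or -1.46 (adjusted p = 0.11 and 0.14). Leaving out NR replicate 1, 2 or 4 left the log2 change at -1.83, -1.9 and -1.98 with adjusted p between 0.065 and 0.073. Replicate 4 is the array on which the chosen csb-1 probe read against the label, and whether it is mislabelled was not tested. In N2 cnc-6 had a log2 change with NR of -0.77 ± 0.53 (adjusted p = 0.61), in csb-1 0.13 (0.90) and in the double mutant -0.03 (0.98), and the NR effect in csa-1 did not differ from that in N2 past the threshold (difference -1.18 ± 0.75, adjusted p = 0.64). Nor did the NR effects in csb-1 and csa-1 differ past it (2.08 ± 0.75, adjusted p = 0.16), in a comparison added after the values had been seen.

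The gene cnc-1, second in the cluster on chromosome V, moved in opposite directions with NR in the csa-1 and csb-1 strains. In csa-1 its Z-scores were 0.11, -0.04, 0.30 and 0.37 on vehicle and -0.30, -0.39, -0.26 and -0.23 on NR. All 4 NR arrays lay below all 4 vehicle arrays, a log2 change of -1.81 ± 0.27 or a 3.5-fold lower level (adjusted p = 0.00022). In csb-1 the vehicle arrays lay at -0.35, -0.32, -0.37 and -0.55 and the NR arrays at -0.12, -0.06, -0.10 and -0.17. Here all 4 NR arrays lay above all 4 vehicle arrays, a log2 change of 1.06 ± 0.27 or a 2.09-fold higher level (adjusted p = 0.021).

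Each of these cnc-1 differences gave p = 0.029 in the exact permutation test, the smallest that 4 arrays against 4 allow. In N2 and in the double mutant the arrays overlapped: N2 had -0.05, 0.15, -0.08 and 0.14 on vehicle and 0.14, 0.03, -0.03 and 0.04 on NR, and the double mutant had -0.44, -0.48, -0.40 and -0.62 on vehicle and -0.36, -0.46, -0.48 and -0.39 on NR. The log2 changes were 0.02 ± 0.27 (adjusted p = 0.98) and 0.25 ± 0.27 (0.75). The difference between the NR effects in csb-1 and csa-1, a test added after these values had been seen, was 2.87 ± 0.38 (adjusted p = 0.00062). With normexp correction and quantile normalization it was 1.36 (0.003). With the main scaling it stayed between 2.63 and 3.14 in the 16 fits that left out an array (limma adjusted p up to 0.0032). There the difference passed for this 1 member and for 73 genes, 0.286% of all genes. That number of genes was 909 with scaling to the 75th percentile and 861 with quantile normalization. It was 1674 with normexp correction and quantile normalization and 67 with the deposited Z-scores. Against the NR effect in N2, that in csa-1 differed by -1.83 ± 0.38 with an adjusted p of 0.069.

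The size of the cnc-1 changes depended on the background correction. With normexp correction and quantile normalization the fall in csa-1 was -0.96 on the log2 scale, that of csa-1 against N2 on NR -0.65 and that of the double mutant against csb-1 on NR -0.56. The rise in csb-1 was then 0.40 with an adjusted p of 0.11. For that rise scaling to the 75th percentile gave an adjusted p of 0.068, and leaving out csb-1 vehicle replicate 4 or csb-1 NR replicates 2 or 3 gave between 0.054 and 0.11. The fall in csa-1 kept an adjusted p under 0.05 in all 8 fits that left out an array, the array labelled csa-1 NR replicate 4 among them. It gave an adjusted p of 0.061 in a fit of those 2 groups alone.

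**Figure D2:**
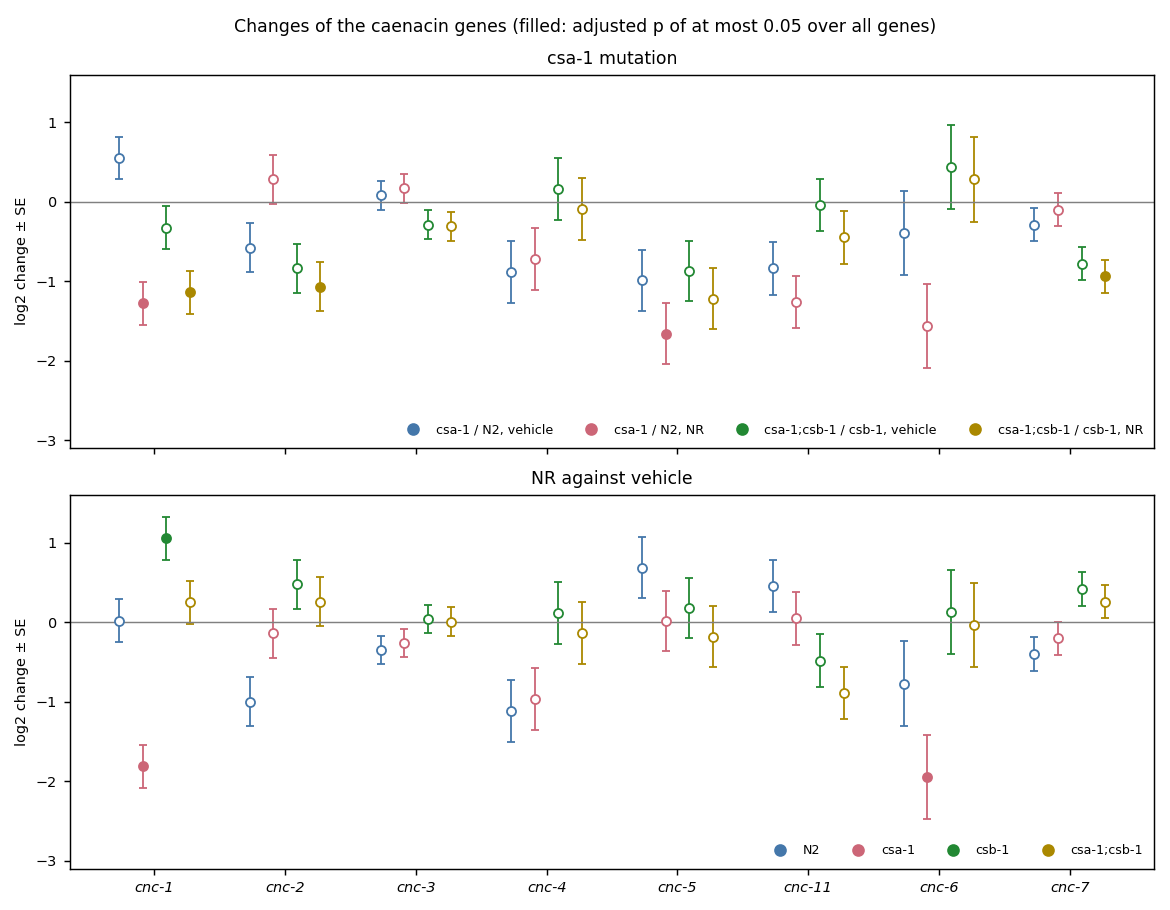
Log2 change (vertical axis) ± SE of each caenacin gene for the csa-1 mutation (upper panel) and for NR against vehicle in each strain (lower panel); filled points have an adjusted p of at most 0.05. In the lower panel cnc-1 stands at -1.81 in csa-1 and 1.06 in csb-1, and cnc-6 at -1.95 in csa-1.

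Over the whole family, few members passed the threshold with NR. In N2 0 of 8 were called (0.871% of all genes) and 2 had an unadjusted p under 0.05 (12.7%): cnc-4 with a log2 change of -1.12 ± 0.39 (adjusted p = 0.15) and cnc-2 with -1 ± 0.31 (0.089). For both genes N2 vehicle replicate 3 read low, nearer to the NR arrays than the other vehicle arrays did. The Z-scores of cnc-4 were 2.30, 2.11, 1.54 and 2.01 on vehicle against 1.67, 1.73, 1.69 and 1.68 on NR, and those of cnc-2 were 1.57, 1.52, 1.14 and 1.46 against 1.14, 1.2, 1.13 and 1.14. Without that replicate both were called. That array had the lowest Z-score of its group for all 8 members.

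In csa-1 2 of 8 members reached an adjusted p of at most 0.05 with NR, cnc-6 and cnc-1, where 5.31% of all genes did. In csb-1 0 were called (1.5%), 1 had an unadjusted p under 0.05 (20.1%) and the same gene, cnc-1, an adjusted p of at most 0.05 (4.67%). In the double mutant 0 were called (2.28%), and 1 had an unadjusted p under 0.05 (16.9%): cnc-11, with a log2 change of -0.89 ± 0.33 and an adjusted p of 0.13. Averaged over the 4 strains 0 members were called (2.69%), 2 had an unadjusted p under 0.05 (27%), cnc-6 with -0.66 ± 0.27 (adjusted p = 0.11) and cnc-4 with -0.53 ± 0.19 (0.071), and the median of the 8 was -0.13 beside 0.00 for all genes. Without N2 vehicle replicate 3, or without csa-1 vehicle replicate 1, both were called, and cnc-6 alone without csa-1 vehicle replicate 2.

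No difference of an NR effect from that in N2 was past the threshold for a member. For csa-1 0 of 8 passed (0.0392% of all genes) and 1 had an unadjusted p under 0.05 (8.9%). For csb-1 0 passed (0.0784%) and 4 had an unadjusted p under 0.05 (7.02%), cnc-2 with a difference of 1.48 ± 0.43, cnc-4 with 1.24, cnc-1 with 1.04 and cnc-7 with 0.82. For the double mutant 0 passed (0.129%) and 3 had an unadjusted p under 0.05 (6.55%), cnc-11 with -1.35 ± 0.47, cnc-2 with 1.25 and cnc-7 with 0.66. All these differences share the N2 vehicle arrays. Leaving out replicate 3 of them brought cnc-1 past the threshold in the first and cnc-2 in the second.

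When the 4 comparisons of the csa-1 mutation were averaged, cnc-2, cnc-7 and cnc-11 were lower and called. Of the 8 members 5 were lower with an adjusted p of at most 0.05, where 14% of all genes passed this threshold, 4.45% as lower and 9.56% as higher. Among the called genes of this average 60.6% were higher, and 47.3% when arrays were scaled to their 75th percentile instead. They were cnc-5 (log2 change -1.18 ± 0.19, adjusted p = 3e-04), cnc-7 (-0.53 ± 0.11, 0.0027), cnc-1 (-0.55 ± 0.14, 0.010), cnc-11 (-0.65 ± 0.17, 0.012) and cnc-2 (-0.55 ± 0.15, 0.019). The average covers opposite signs for cnc-1, which had a log2 change of 0.55 ± 0.27 in csa-1 against N2 on vehicle (adjusted p = 0.19), and for cnc-2, which had 0.28 ± 0.31 on NR (0.75). It also covers unequal sizes. For cnc-7 the change of csa-1 against N2 was -0.29 on vehicle (adjusted p = 0.36) and -0.10 on NR (0.90). In the double mutant against csb-1 it was -0.78 and -0.94. For cnc-11 the change of csa-1 against N2 was -0.84 on vehicle and -1.26 on NR. In the double mutant against csb-1 it was -0.04 (0.95) and -0.45 (0.58). Of the 5 lower genes cnc-2, cnc-7 and cnc-11 were called, 3 of 8, where 3.2% of all genes were. The other members had values of -0.38 ± 0.19 for cnc-4 (adjusted p = 0.17), -0.31 ± 0.27 for cnc-6 (0.43) and -0.09 ± 0.09 for cnc-3 (0.51). The median of the 8 was -0.54 beside -0.01 for all genes, of which 51.2% were lower. The 5 adjusted p-values stayed under 0.05 whichever array was left out, the highest being 0.036. The probe of cnc-5 was well above background on only 8 of the 32 arrays, so its fold is not a measured one, and with normexp correction and quantile normalization the average was -0.27 for cnc-5 and -0.31 for cnc-1.

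In the single comparisons that make up this average fewer genes passed. On vehicle, csa-1 against N2 gave 0 called members (0.667% of all genes) and 3 with an unadjusted p under 0.05 (27.8%): cnc-5 with -0.99 ± 0.38 (adjusted p = 0.10), cnc-11 with -0.84 ± 0.33 (0.11) and cnc-4 with -0.88 ± 0.39 (0.15). The gene cnc-11 read 0.80, 0.95, 0.39 and 0.85 on N2 vehicle and 0.35, 0.54, 0.54 and 0.66 on csa-1 vehicle. The one low N2 array is replicate 3 again, and without it cnc-4 and cnc-11 were called. The value of cnc-6, -0.39 ± 0.53, turned to 0.17 or 0.10 when csa-1 vehicle replicate 1 or 2 was left out.

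On NR, csa-1 against N2 gave 0 called (0.361%), 4 with an unadjusted p under 0.05 (13.4%) and 2 with an adjusted p of at most 0.05 (0.6%). These were cnc-1, lower by 1.28 ± 0.27 on the log2 scale (adjusted p = 0.026), and cnc-5, with a log2 change of -1.66 ± 0.38 (0.036). The adjusted p of cnc-1 rose to between 0.052 and 0.12 without N2 NR replicates 1, 2 or 4 or csa-1 NR replicates 2 or 3, and that of cnc-5 to between 0.084 and 0.13 without replicates 2, 3 or 4 of either group, the array labelled csa-1 NR replicate 4 included. The probe of cnc-5 read -0.67, -0.31, -0.47 and -0.47 on N2 with NR, where it was well above background on 3 of 4 arrays. On csa-1 with NR it read -0.81, -1.06, -0.92 and -0.92 and was above it on 0. A floored fold sets the mean of the brighter group against, on each dimmer array, the higher of the lowest signal well above background and the probe's own signal. On this scale the floored fold was 2.1, lower in csa-1. It is not a strict lower limit, since the mean of the brighter group includes arrays not well above background. With normexp correction and quantile normalization the log2 change of cnc-5 was -0.47, a smaller change than that fold. Arrays of the 2 groups did not overlap for 5 members, cnc-1, cnc-4, cnc-5, cnc-6 and cnc-11, all lower in csa-1, where 11.6% of all genes were so separated. For cnc-6 the log2 change was -1.56 ± 0.53 and for cnc-11 -1.26 ± 0.33, with adjusted p of 0.18 and 0.074.

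In the double mutant against csb-1, cnc-7 and cnc-2 were lower on NR. On vehicle 0 members were called (0.981%) and 3 had an unadjusted p under 0.05 (20.6%): cnc-7 with -0.78 ± 0.21 (adjusted p = 0.052), cnc-2 with -0.84 ± 0.31 (0.13) and cnc-5 (0.20), whose size is not given since only 1 of these 8 arrays, from csb-1, read its probe well above background. On NR 2 of 8 were called (2.62%), cnc-7, lower by 0.94 ± 0.21 on the log2 scale (1.91-fold, adjusted p = 0.0098), and cnc-2, lower by 1.07 ± 0.31 (2.1-fold, adjusted p = 0.044). The Z-scores of cnc-7 were 1.05, 1.09, 1.03 and 0.95 in csb-1 and 0.75, 0.74, 0.80 and 0.82 in the double mutant, and those of cnc-2 were 1.39, 1.46, 1.4 and 1.24 against 1.02, 1.03, 1.17 and 1.12. Neither pair of groups overlapped (exact permutation p = 0.029 for each).

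With cnc-1, lower by 1.14 ± 0.27 on the log2 scale (adjusted p = 0.014), 3 of 8 members reached an adjusted p of at most 0.05 in the double mutant on NR, as did 4.07% of all genes. The groups did not overlap for 5 members, these 3 with cnc-3 and cnc-5, where 24.3% of all genes were so separated. The probe of cnc-5 was well above background on 2 of 4 csb-1 arrays and on 0 of the double mutant, with a floored fold of 1.12, lower in the double mutant. The call of cnc-2 was lost in 7 of the 8 fits without an array of these groups (log2 changes of -1.18 to -0.96, adjusted p up to 0.15, kept without csb-1 NR replicate 4) and with the replicate number as a block (-1.07, 0.057), and that of cnc-7 without csb-1 NR replicate 2 (adjusted p of 0.05, just past the threshold), where cnc-1 had 0.057. By contrast cnc-6 had values of 0.44 ± 0.53 on vehicle and 0.28 ± 0.53 on NR. Whether the csa-1 effect itself differs between strains with and without csb-1 was not tested.

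The probes of 1 gene moved together. The 6 probes of cnc-2 gave log2 changes between -1.15 and -1.01 for the double mutant against csb-1 on NR, with adjusted p from 0.014 to 0.051 in a fit of all probes, and between -0.59 and -0.46 for the csa-1 average, with adjusted p from 0.0074 to 0.053. The 5 probes of cnc-11 gave -0.72 to -0.65 for the csa-1 average and -1.41 to -1.26 for csa-1 against N2 on NR, with adjusted p from 0.044 to 0.095. In NR against vehicle in N2 the cnc-2 probes ran from -1.22 to -0.80 and the cnc-11 probes from 0.42 to 0.52. These are repeated readings of the same RNA on the same arrays and add no replicates.

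**Figure D3:**
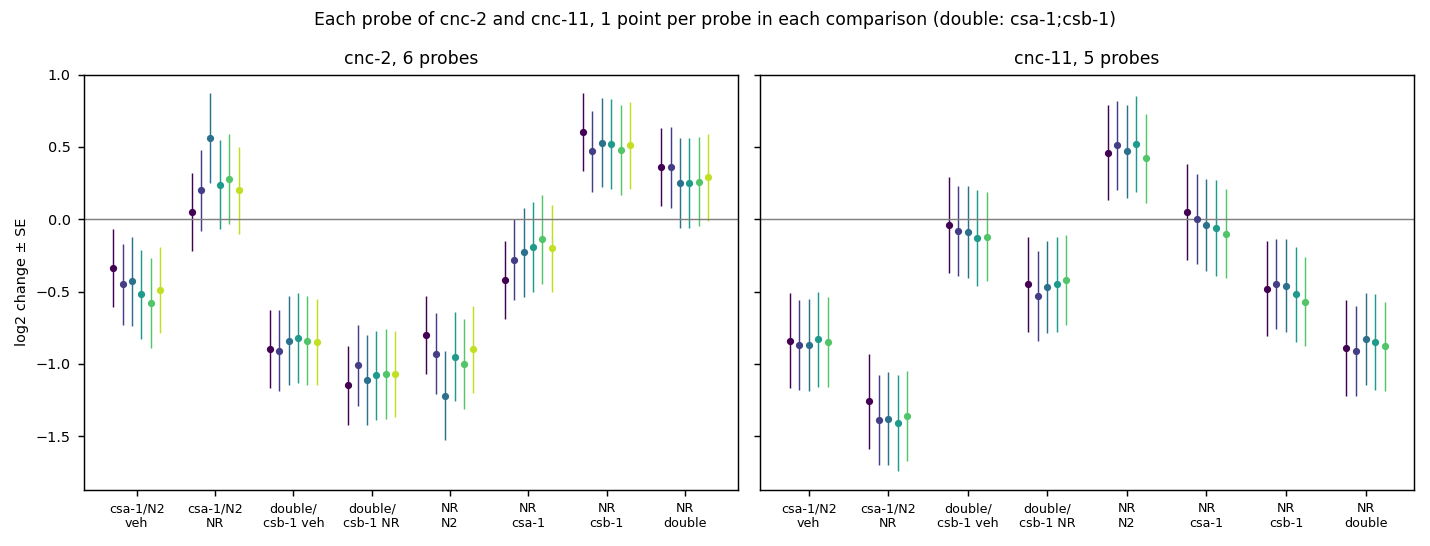
Log2 change (vertical axis) ± SE of each of the 6 probes of cnc-2 and 5 probes of cnc-11 in the 8 tested comparisons of 2 groups. Within a comparison the probes of a gene lie close together; the widest range among the probes of cnc-2 is 0.05 to 0.56, for csa-1 against N2 on NR, and the cnc-11 probes lie between -0.57 and -0.45 for NR in csb-1.

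The remaining member, cnc-3, had the narrowest range of the 8. Its Z-scores on all 32 arrays lay between 1.08 and 1.36, with group means from 1.15 to 1.26, and none of its 7 steps between neighbouring group means exceeded the SD. None of its tested changes had an adjusted p under 0.34, although its arrays did not overlap between csb-1 and the double mutant on NR (log2 change -0.31 ± 0.18, adjusted p = 0.44). The group means of cnc-4 ran from 1.5 to 1.99 and were highest in N2 vehicle and csa-1 vehicle, the groups that also led for cnc-6. Those of cnc-11 were highest in both N2 groups (0.87 on NR and 0.75 on vehicle) and lowest in the double mutant on NR (0.33). Those of cnc-7 ran from 0.71 in the double mutant on vehicle to 1.03 in csb-1 on NR. Those of cnc-5 ran from -1.13 to -0.48, with the 3 groups in which no array was well above background in the lower part of that order. Over the 8 genes 7 of the steps between neighbouring means exceeded the larger SD of the groups beside them, 2 each for cnc-1 and cnc-6 and 1 each for cnc-4, cnc-7 and cnc-11.

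Across the 32 arrays all 28 pairs of members had a Pearson correlation above 0, from 0.13 to 0.94 with a median of 0.53. After subtracting the group means the range was 0.03 to 0.91 with a median of 0.42. The closest pair was cnc-2 and cnc-7 (0.94 over all arrays and 0.91 within groups), which lie apart on chromosome V, followed by cnc-4 and cnc-6 (0.85 and 0.69), which lie on different chromosomes. Within groups other pairs exceeded the latter, among them cnc-2 and cnc-4 (0.90) and cnc-4 and cnc-7 (0.82). The arrays share hybridizations and scans, and these values describe them without a test.

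Among 10827 other named genes with a mean Z-score above 0, those most like cnc-6 over the 32 arrays by Pearson correlation were C30F12.3 (0.94), srlf-34 (0.90), nssp-65 (0.89), clec-1 (0.88), which encodes a C-type lectin, and D1086.11 (0.87). Those most like cnc-4 were srlf-34 (0.95), nlp-31 and nssp-65 (0.91 each), nlp-27 (0.90) and Y41G9A.10 (0.89). Within groups these correlations were 0.92 for C30F12.3 with cnc-6, 0.93 for nlp-31 with cnc-4 and 0.82 for nlp-27 with cnc-4, and both nlp genes encode epidermal peptides of the family that includes nlp-29.

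Of the 18 genes beside the members on the chromosomes 1 was lower in the csa-1 average, where 4.45% of all genes were. Of the 6 nearest tested genes around the cluster on chromosome V, 3 were higher in the csa-1 average, ges-1, a gut esterase (0.40, adjusted p = 0.024), R09B5.11 (0.32, 0.0049) and hacd-1 (0.36, 0.0082), and 0 were lower at that threshold. With NR hacd-1 was lower by 0.81 on the log2 scale (adjusted p = 1.7e-07) and the other 5 did not pass. Around cnc-6 1 of 6 passed in the csa-1 average, Y39A3CL.3 with a log2 change of -0.83 (0.0054), and around cnc-7 1 of 6, K02E2.6 with 0.40 (0.033). With NR 0 of 6 passed around cnc-6, ser-4 having the smallest adjusted p (0.32, 0.070), and K02E2.7 (0.30, 0.025) and fce-2 (0.34, 0.030) were higher around cnc-7.

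Of the other epidermal peptides that passed in the csa-1 average, nlp genes went both ways. Those among the other caenacins and the fungus-induced peptides were lower. Beside them 4.45% of all genes were lower and 9.56% higher at an adjusted p of at most 0.05. Of the 3 other caenacins measured, all above background on all arrays, cnc-8 was lower by 0.50 ± 0.17 on the log2 scale (adjusted p = 0.049), while cnc-9 (-0.56 ± 0.24, 0.11) and cnc-10 (-0.18, 0.22) did not pass. Of 10 nlp peptides of the epidermal cluster and its relatives 2 were lower, nlp-33 by 0.71 ± 0.20 (0.020) and nlp-28 by 0.35 (0.045), and 2 were higher, nlp-26 by 0.41 ± 0.09 (0.0042) and nlp-24 by 0.31 (0.011). The median of the list was -0.39 beside -0.01 for all genes. Of 32 fungus-induced peptides (fip and fipr genes) 4 were lower and 0 higher, with a median of -0.41, led by fipr-27 (-0.68 ± 0.16, 0.0084) and fipr-7 (-0.61 ± 0.20, 0.041).

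With NR averaged over the strains, 3 of the 10 nlp genes were lower and 0 higher, nlp-24 by 0.43 ± 0.08 (adjusted p = 0.00021), nlp-26 by 0.38 (0.0027) and nlp-29 by 0.37 (0.010). Of the fungus-induced peptides 10 of 32 were lower and 0 higher, with fipr-21 lower by 0.84 ± 0.16 (0.00035) and fipr-22 by 0.32 (0.0042), and a median of -0.31. Of all genes 4.76% were lower and 8.51% higher at this threshold in the NR average. None of the 8 caenacins and none of the other 3 was among those that passed, although cnc-8 had a value of -0.42 ± 0.17 (0.10).

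**Figure D4:**
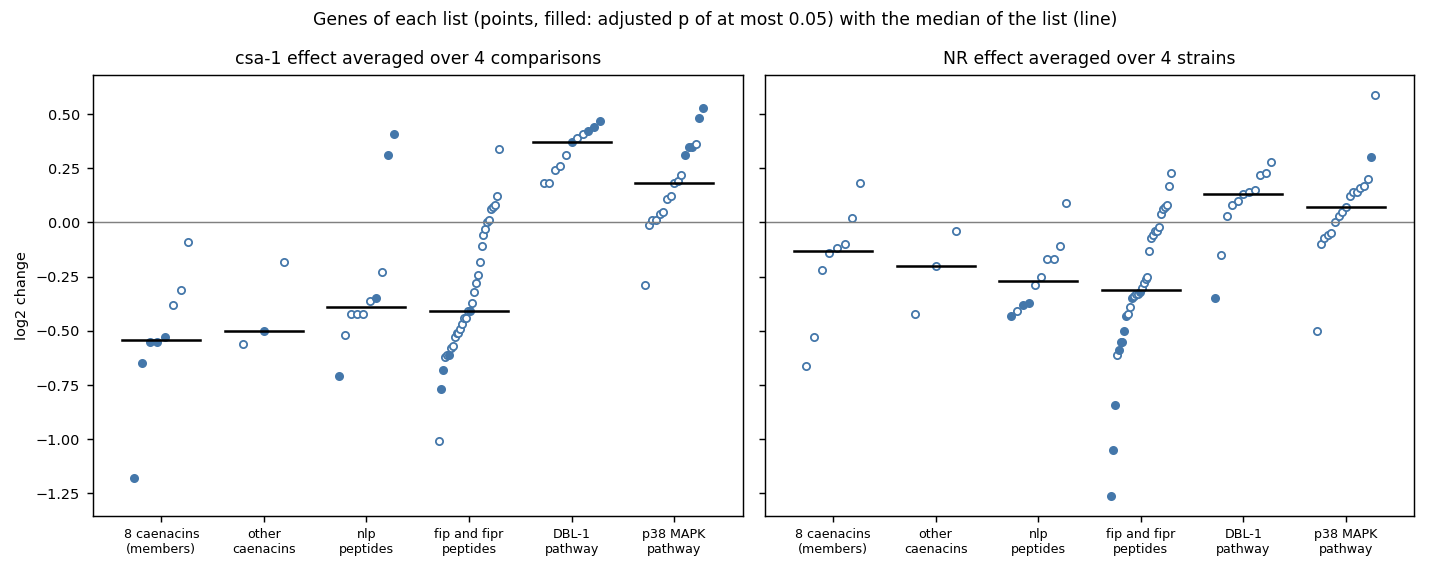
Log2 change (vertical axis) of each gene of 6 lists in the csa-1 average (left) and the NR average (right); points are genes, filled where the adjusted p is at most 0.05, and lines are medians of the lists. In the left panel the 8 caenacins have a median of -0.54 and the DBL-1 pathway one of 0.37.

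Genes listed for the DBL-1 pathway, the epidermal p38 pathway and the osmotic stress response were higher, where they passed, in the csa-1 average. Which of these genes act on the caenacins was not tested. At the same threshold 9.56% of all genes were higher and 4.45% lower there, and 8.51% and 4.76% in the NR average. Of 11 genes of the DBL-1 TGF-beta pathway 4 were higher and 0 lower in the csa-1 average, with a median of 0.37. These were the co-Smad sma-4 (0.42 ± 0.09, adjusted p = 0.0051), the ligand gene dbl-1 (0.37 ± 0.08, 0.0063), the receptor-regulated Smad sma-3 (0.44 ± 0.10, 0.0063) and the transcription factor gene sma-9 (0.47, 0.011). With NR 1 of the 11 passed, lon-1 with -0.35 ± 0.09 (0.011), a target of the pathway, and sma-3 came next with 0.28 (0.065). Of 17 genes of the epidermal p38 pathway 5 were higher and 0 lower in the csa-1 average, led by the G-protein subunit gene gpa-12 (0.48 ± 0.13, 0.016) and the transporter gene snf-12 (0.35 ± 0.10, 0.017). With NR 1 passed, dcar-1 (0.30 ± 0.07, 0.0021), a receptor upstream of the kinases, and nipi-4 came next with 0.59 (0.094). Of 6 genes that respond to or control the osmotic stress response, gpdh-1 (0.62 ± 0.09, 0.00013) and hmit-1.1 (0.45, 0.0098) were higher in the csa-1 average, and hmit-1.1 was higher with NR (0.72 ± 0.11, 2.3e-05), followed by gpdh-1 with -0.19 (0.16).

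Markers of tissues moved as well, mostly upward in the csa-1 average, where 9.56% of all genes were higher and 4.45% lower. In the NR average these shares were 8.51% and 4.76%. Gene lists were not refitted with other scalings. Of 7 epidermal markers the adult cuticle collagen gene col-19 was higher by 0.95 ± 0.14 (adjusted p = 0.00013), and dpy-7 followed with 0.38 (0.28). The mean Z-score of this list lay between -0.11 and 0.19 on the arrays of N2 and csb-1 and between 0.04 and 0.21 on those of csa-1 and the double mutant. All 5 body wall muscle markers were higher, with a median of 0.65, among them myo-3 (0.65, 0.00028) and unc-54 (0.81, 0.0017), and their mean lay at 0.34 to 0.58 and at 0.26 to 0.72. So were 4 of 5 intestine markers, among them ifb-2 (0.50, 0.0015) and elt-2 (0.33, 0.0063), with means of 0.89 to 1.08 and 0.98 to 1.2, and 4 of 6 neuron markers, among them unc-104 (0.51, 0.0013) and ric-4 (0.40, 0.019), with means of 0.41 to 0.65 and 0.52 to 0.73.

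Of 4 pharynx muscle markers 2 were higher, tnt-4 (0.38, adjusted p = 0.0052) and myo-2 (0.42, 0.029). Of 6 germline and oocyte markers 0 passed and 3 had an unadjusted p under 0.05, puf-5 (-0.43, 0.076) and oma-1 (-0.30, 0.13) having the smallest p, and of 6 sperm markers spe-41 was higher (0.30, 0.016), with spe-9 next (0.30, 0.15). With NR 5 of 6 sperm markers were higher, msp-142 by 1.23 ± 0.18 (1.1e-05) and msp-3 by 1.1 ± 0.17 (2.3e-05), their mean lying between -0.29 and 0.11 on vehicle arrays and between 0.03 and 0.25 on NR arrays. In the epidermis list col-19 was lower with NR by 0.83 ± 0.14 (6.3e-05) and che-14 higher by 0.62 (0.015), in the intestine list vha-6 was lower by 0.43 (0.0015) and act-5 came next (0.11, 0.61), and in muscle unc-54 was lower by 0.46 (0.046) with hlh-1 next (0.18, 0.060). In the NR average 0 of the pharynx, neuron and germline markers passed, and 0, 1 and 0 of them had an unadjusted p under 0.05. No marker measured was below background on every array. The part of these marker changes in the changes of the caenacins was not tested.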

How the data were processed

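RNA of whole worms (200 ng) was hybridized by the authors to 32 one-colour Agilent arrays, 4 in each of 8 groups, and scanned with Feature Extraction 11.5.1.1. The deposited scanner files give a background-subtracted intensity per spot, with the raw median signal and background, in arbitrary units. In the deposited table the authors had turned the natural log signal of each array into a score, the Z-score over all its spots, which was recomputed to within 0.006. Of 45220 spots 1417 were controls, and of 43603 probes 289 with an outlier flag on any array were left out, which leaves 43314. No gene spot was saturated. The number of arrays limits the precision.

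The log2 intensity was turned into a Z-score within each array, after the methods of the study, and the brightest of several probes stood for a gene (7060 of 25497 genes). Of 28476 systematic names 22729 matched the RefSeq gene table (WBcel235), and the rest kept the name in the files. Groups were compared with limma 3.58.1 in R 4.3.3 in 1 fit over all 32 arrays with 8 group means, tested on simulated data first, with Benjamini-Hochberg adjustment. The SD of log2 intensity ranged from 3.17 to 4 over the arrays.

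The members, gene lists and tests were chosen with earlier results of these data known. All members were named, with the 2 genes of smallest p in each list and average, the 5 most like cnc-6 and the member of highest mean Z-score, and 3 neighbours on each side. Alternatives were other scalings, normexp (offset 50, on median signals), the mean of all probes, flagged probes kept, a filter on dim genes, 2-group fits, a replicate block and leaving out arrays. The difference between the NR effects in csb-1 and csa-1, and leaving out N2 vehicle replicates 1 and 3 together, were added after seeing the data.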

Additional observations from a re-analysis of the deposited data

Results flagged for a closer look

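In 3 of the 64 sets of 4 arrays, each 1 member in 1 group, an array stood apart from the other 3 by more than Dixon's criterion allows, which chance does in about 5% of sets. In N2 on vehicle replicate 3 was low for cnc-5, with a Z-score of -0.95 beside -0.59 to -0.56, and for cnc-7, with 0.81 beside 1.06 to 1.09. In N2 on NR replicate 2 was high for cnc-2, with 1.2 beside 1.13 to 1.14. The NR effects on cnc-1 differed between csb-1 and csa-1 by 2.87 on the log2 scale (limma, adjusted p = 0.00062). This test was added after the values had been seen, so its p is no independent support. All 4 NR arrays lay above all 4 vehicle arrays in csb-1 and below them in csa-1. Of 12 pairs of comparisons looked at in this way for every member, 1 showed such opposite moves, for cnc-1.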

How the results depend on the processing

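The csa-1 average kept its 3 called members (cnc-2, cnc-7 and cnc-11) under all 9 alternatives other than leaving out an array, and the range was 2 to 4 when each array was left out. Without N2 vehicle replicates 1 and 3, the count of called members rose from 0 to 2 for csa-1 against N2 on vehicle, from 0 to 1 for NR in N2 and from 0 to 2 for the NR average. For csa-1 against N2 on NR it rose from 0 to 1 with normexp correction, with the mean of all probes and in a fit of the 2 groups alone. For the double mutant against csb-1 on vehicle it rose from 0 to 1 with 75th percentile scaling, normexp correction and the filter on dim genes. For NR in csa-1 it went from 1 to 2 with normexp correction and to 0 in a fit of the 2 groups alone, and for the difference of the NR effects in csa-1 and N2 from 0 to 1 with quantile normalization and the filter on dim genes. The cause of these moves was not tested.

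With the replicate number as a block, the double mutant against csb-1 on NR had 1 called member in place of 2. The numbers do not pair the arrays: over 32 same-numbered pairs the correlation of deviations ran from -0.28 to 0.30, and 4 of 32 arrays correlated best with their own number. The block moved no other count of called members.

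Leaving out each array in turn gave 0 to 2 called members for csa-1 against N2 on vehicle, the double mutant against csb-1 on NR, NR in N2 and the NR average, 0 to 1 for NR in csa-1 and for the differences of the NR effects in csa-1 and csb-1 from N2, and no change elsewhere but in the csa-1 average. For cnc-6, the log2 change with NR in csb-1 turned from 0.13 to -0.02 with quantile normalization and with normexp correction. Leaving out an array took its change in csa-1 against N2 on vehicle to between -0.96 and 0.17, and with NR in the double mutant to between -0.16 and 0.07. Scaling to the 75th percentile moved the median of all genes in the NR average to -0.11. Fits of 2 groups alone could not be made for averages and differences. Depth in the form of signal over background limits cnc-5, which was well above background on 8 of 32 arrays.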
